A study of Mus musculus with 15 samples.

Results

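The 37 genes described here encode the contractile apparatus of smooth muscle and the proteins that anchor, regulate and fuel it, and they were chosen by gene symbol, with no limit set on their values. All 37 were present in the 3 gene count tables of the study, among 12897 genes listed in any table and 12370 listed in all of them. RNA was sequenced from the distal colon of 15 mice on the C57BL/6 background, with 3 mice in each of 5 groups. Wild-type B6 mice were left untreated in a first set (B6 CTL set 1) and a second set (B6 CTL set 2), or were taken at D26 after a single injection of 7 mg/kg azoxymethane (AOM, a colon carcinogen) on D1 and drinking water with 2% dextran sulfate (DSS, which damages the colon epithelium) from D8 to D11. Irf1-/- mutants, which lack a transcription factor of interferon responses in every cell, were either untreated or given the same AOM/DSS treatment and taken at D26. The study's tumour model was started in mice of 8 to 10 weeks. The ages of the sequenced mice are not given in the sources used here, and neither is whether the mutants and the B6 mice were littermates. The labels give each library as a separate sample, so the p-values below measure the spread between these samples. Treated B6 shared a count table with B6 CTL set 1, and untreated Irf1-/- mutants shared tables with B6 CTL set 2 and with treated Irf1-/- mutants.

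Smooth muscle forms the outer layers of the colon wall and the thin muscularis mucosae, and it also surrounds blood vessels. It shortens when calcium entering the cell or released from stores activates myosin light chain kinase, which phosphorylates the regulatory light chain of myosin and lets the myosin filaments pull on actin. Myosin phosphatase reverses this step, dense bodies and adhesion plaques take the place of the Z-discs of striated muscle as anchors for actin, and the coactivator myocardin, bound to serum response factor on CArG boxes, drives many of the genes. Whole colon tissue was sequenced, and values are scaled to the library. A lower value can thus come from fewer muscle cells in the piece, from less RNA per cell or from more RNA of other cells. These cannot be told apart, and counts of whole tissue do not show which cells the reads of a gene came from.

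Libraries held 22266607 to 22869853 counts over the genes in the tables, so these totals differed by a factor of 1.027 at most. Levels are given as counts scaled to library size (CPM) after TMM scaling over the 12370 shared genes. The least abundant member in any library, Sgcd, still had 214 counts, and the most abundant, Flna, reached 71050. Irf1 was at 79.4 to 123 CPM in the 6 Irf1-/- libraries and at 128 to 227 CPM in the 9 B6 libraries, lower in the mutants without overlap but not at 0, and a count over the whole gene does not show which exons the reads came from. The 6 defining smooth muscle markers (Myh11, Acta2, Actg2, Tagln, Cnn1 and Des) are themselves members and summed to between 6722 and 8685 CPM in every library. Of the markers of other muscle, 13 of 15 for skeletal muscle were in all tables, as was 1 of 5 for cardiac muscle (Tnnt2). Myh7 and Actn3 for skeletal muscle and Myh6, Tnni3, Nppa and Myl7 for cardiac muscle were not listed in all of them.

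The 37 genes together took 1.55% to 1.93% of the counts of a library, and the groups overlapped in this share. It was 1.74% to 1.79% in B6 CTL set 1, 1.75% to 1.81% in treated B6, 1.65% to 1.76% in B6 CTL set 2, 1.55% to 1.93% in untreated Irf1-/- mutants and 1.62% to 1.90% in treated Irf1-/- mutants. Per kilobase of exon, which is the scale on which genes can be compared with each other, the median over 15 libraries ran from 734 CPM per kb for Tagln, which encodes the actin-binding protein transgelin, to 2.23 CPM per kb for Ryr2, a calcium release channel of the sarcoplasmic reticulum. Acta2 (585 CPM per kb), the alpha actin of smooth muscle, and Actg2 (531 CPM per kb), its enteric gamma actin, followed Tagln. Next came Myl9 (481 CPM per kb), the regulatory light chain, Myh11 (425 CPM per kb), the smooth muscle myosin heavy chain, and Des (361 CPM per kb), the intermediate filament protein desmin. The regulator Myocd, at 2.91 CPM per kb, was among the lowest. Acta2 and Actg2, or Myl9 and Myh11, are neighbours in this order whose ranges over the 15 libraries overlap.

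**Figure D1:**
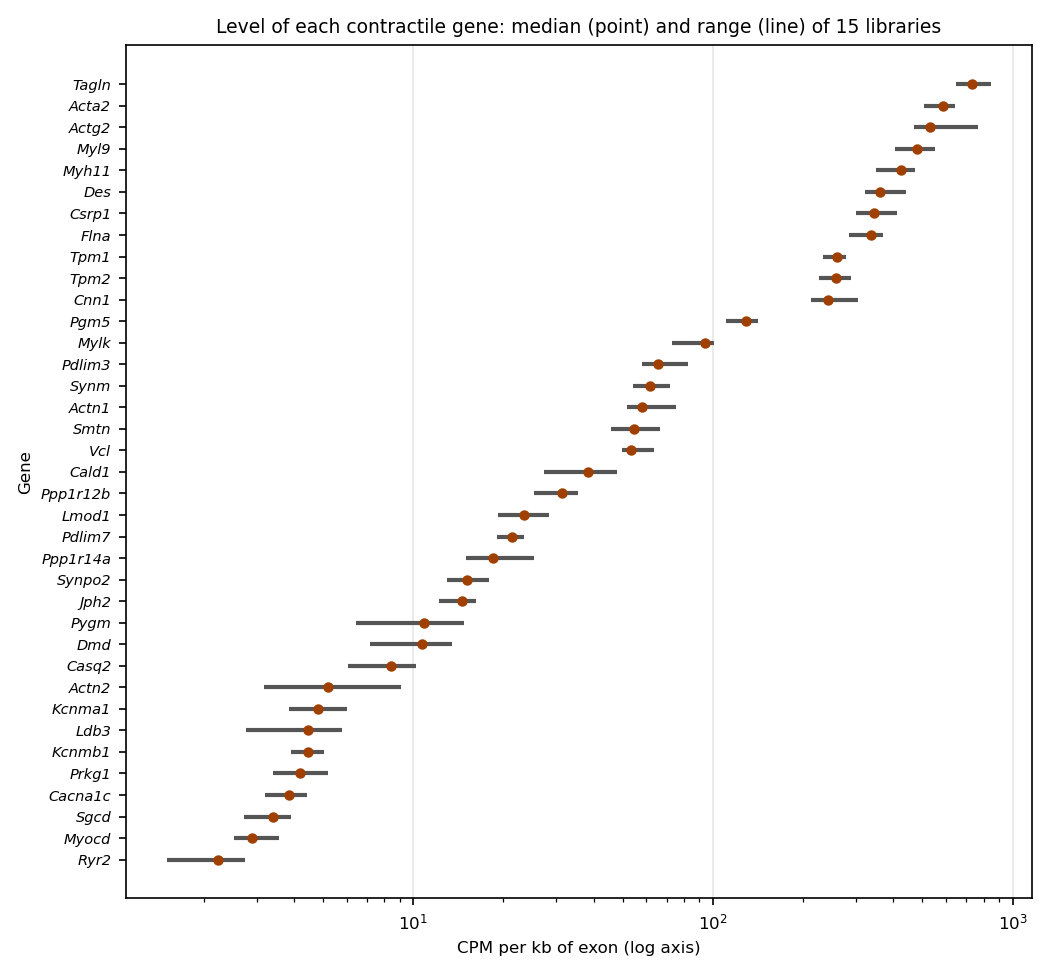
CPM per kb of exon for each of the 37 genes on a log axis, with the median of 15 libraries as a point and the lowest and highest library as the ends of the line. The order runs from Tagln at 734 CPM per kb to Ryr2 at 2.23 CPM per kb, and most lines are short beside the spacing of the scale.

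Most members varied little over the 15 libraries. The ratio of the highest to the lowest library was under 1.5 for 26 of the 37 genes, against 49.8% of the 12370 genes, and it was 2 or more for 3 genes only (Actn2 at 2.86, Pygm at 2.30 and Ldb3 at 2.10). The SD of log2 CPM over the 15 libraries had a median of 0.141 among the members and 0.167 among all genes, and the SD within groups had medians of 0.129 and 0.131. Actn2, the alpha-actinin of skeletal and cardiac Z-discs, had the largest SD over the libraries at 0.531.

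The filament genes can be followed library by library. Myh11 was at 2833, 2866 and 2809 CPM in B6 CTL set 1 and at 3111, 2753 and 2829 CPM in treated B6. In B6 CTL set 2 it was at 2587, 2590 and 2724 CPM. It stood at 2787, 2306 and 2876 CPM in untreated Irf1-/- mutants and at 2369, 2926 and 2944 CPM in treated ones. The lowest Myh11 values were therefore single libraries of each mutant group. Treated B6 overlapped B6 CTL set 1, and the mutant groups overlapped each other and B6 CTL set 2, but B6 CTL set 2 lay below B6 CTL set 1 and treated B6 without overlap.

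Acta2 gave 1223, 1302 and 1201 CPM in B6 CTL set 1, and 1191, 1222 and 1288 CPM in treated B6. B6 CTL set 2 gave 1069, 1108 and 1122 CPM. Untreated Irf1-/- mutants gave 1182, 1030 and 1311 CPM, and treated ones 1123, 1113 and 1279 CPM. Treated B6 overlapped B6 CTL set 1 but lay above B6 CTL set 2, and treated and untreated mutants overlapped. Actg2, the actin most particular to the gut wall, had a wider spread within groups than the other filament genes. It was at 832, 725 and 736 CPM in B6 CTL set 1, at 660, 920 and 663 CPM in treated B6, and at 720, 660 and 827 CPM in B6 CTL set 2. The mutants had 639, 689 and 1047 CPM untreated and 894, 655 and 959 CPM treated, so that both the highest and the lowest of the 15 values lay in untreated mutants.

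Tagln was at 1211, 1274 and 1169 CPM in B6 CTL set 1, at 1277, 1210 and 1170 CPM in treated B6, and at 1034, 1038 and 1123 CPM in B6 CTL set 2. It was at 1080, 1043 and 1348 CPM in untreated Irf1-/- mutants and at 1068, 1178 and 1264 CPM in treated ones. B6 CTL set 2 lay below B6 CTL set 1 and treated B6 without overlap, while treated B6 overlapped B6 CTL set 1 and treated mutants overlapped untreated ones. Des was at 1162, 1092 and 1025 CPM in B6 CTL set 1, at 1131, 1156 and 1089 CPM in treated B6, and at 1122, 1068 and 1298 CPM in B6 CTL set 2. The mutants had 971, 1047 and 1337 CPM untreated and 995, 1010 and 1253 CPM treated. No group stood apart in Des.

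Myocd, the coactivator upstream of many of these genes, was far less abundant than the filament genes. It was at 14.4, 13.9 and 14.9 CPM in B6 CTL set 1, at 16.5, 16.4 and 12.9 CPM in treated B6, and at 15.6, 16.3 and 14.9 CPM in B6 CTL set 2. Irf1-/- mutants had 14.3, 14.0 and 18.3 CPM untreated and 13.5, 17.5 and 16.7 CPM treated. The smallest adjusted p for Myocd over 7 comparisons was 0.625, and the treated and untreated values overlapped in both genotypes.

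The CArG box, the sequence on which serum response factor and myocardin act, was searched for in the 250 bases before each transcription start (RefSeq, GRCm38.p6). Promoter sequences were used for 33 of the 37 genes, and Actg2, Myh11, Tagln and Myocd were not searched. The box, CC followed by 6 bases of A or T and then GG, was found in 4 of these 33 genes (12.1%), and in 1.54% of the 9149 measured genes that have a promoter sequence. It reads as the same pattern on both strands, and a match is a description of the letters only. The windows are shown because they are the members with a box close to the start, with 20 bases before it, the box in capitals and 20 bases after it. Myl9 lies on the plus strand at chr2:156775283-156775332, Vcl on the plus strand at chr14:20929151-20929200, Dmd on the plus strand at chrX:82948752-82948801, and Ldb3 on the minus strand at chr14:34588687-34588736.
Myl9: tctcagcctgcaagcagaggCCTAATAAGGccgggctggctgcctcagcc
Vcl: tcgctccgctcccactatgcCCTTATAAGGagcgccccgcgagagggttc
Dmd: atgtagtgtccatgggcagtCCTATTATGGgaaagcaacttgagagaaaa
Ldb3: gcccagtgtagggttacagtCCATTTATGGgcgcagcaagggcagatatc
The first base of the box stood 161 bases before the start in Myl9, 227 in Vcl, 98 in Dmd (in front of 1 of its 2 starts) and 35 or 109 in Ldb3, which has 2 starts close together.

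Steady-state expression was compared first, between untreated Irf1-/- mutants and B6 CTL set 2. None of the contractile genes was dysregulated at steady state in edgeR: 0 of 37 met the rule of the study, an adjusted p under 0.01 and a change (FC) of 1.5-fold or more, against 0.405% of the 12588 genes tested. The study itself reported more genes at these limits than the fits here gave, at steady state and in both responses to AOM/DSS. Its own calls may therefore hold members not called here, and the shares of all genes are those of the fits here. At an adjusted p under 0.05 with any fold the count was also 0, against 1.25% of all genes. DESeq2 and the exact test of edgeR likewise called 0, and 2 members had an unadjusted p under 0.05, against 10.4% of all genes. The median log2 FC of the members was 0.03, beside 0.00 for all genes, and 21 of 37 were positive (50.8% of all genes). For 36 of the 37 the 95% interval of the fold change lay within 1.5-fold in both directions, which held for 90.4% of all genes.

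By role, the 4 actin and myosin genes had log2 FC from 0.01 to 0.11 at steady state, the 8 actin-binding genes from -0.02 to 0.12, and the 6 genes of channels and calcium stores from -0.13 to 0.11. Pygm, the muscle form of glycogen phosphorylase, was the member whose interval crossed the 1.5-fold bound, with a log2 FC of -0.29 ± 0.13 (SE, 95% interval -0.59 to 0.01) and an adjusted p of 0.498. Ldb3, a PDZ and LIM domain protein best known from striated Z-discs, had a log2 FC of -0.35 ± 0.10 (95% interval -0.58 to -0.13, adjusted p = 0.192). It was at 31.7, 33.3 and 30 CPM in B6 CTL set 2 and at 21.1, 26.0 and 27.2 CPM in the mutants, without overlap. Vcl, which encodes vinculin of adhesion plaques, was the only other member without overlap, at 303, 305 and 313 CPM in the mutants and 280, 266 and 278 CPM in B6 CTL set 2. Libraries did not overlap in 15.5% of all genes in this comparison.

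The response of B6 mice to AOM/DSS was then examined at D26 against B6 CTL set 1. No contractile gene met the rule of the study in edgeR, against 0.0475% of 12643 genes, and DESeq2 and the exact test also called 0. With an adjusted p under 0.05 as the limit, 1 member was downregulated (Cald1), against 4.52% of all genes, and 7 members had an unadjusted p under 0.05, against 29.5%. The median log2 FC was 0.02 among the members and 0.01 among all genes, with 21 of 37 positive (51.8% of all genes). The interval lay within 1.5-fold for 32 members, against 72.7% of all genes. The filament genes were the most even group, with log2 FC of -0.02 to 0.04 for the actin and myosin genes.

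Cald1 encodes caldesmon, an actin-binding protein that restrains the actomyosin interaction. It was at 229, 209 and 245 CPM in B6 CTL set 1 and at 140, 184 and 165 CPM in treated B6. Each treated mouse was thus below each untreated one, and the log2 FC was -0.48 ± 0.11 (adjusted p = 0.0385). In B6 CTL set 2, however, Cald1 was at 195, 184 and 183 CPM, and against that set the log2 FC was -0.19 (adjusted p = 0.252). With 1 library left out at a time the log2 FC was -0.57 to -0.38, and the limit was met in 2 of 6 fits, those without the first or the second treated mouse. Dmd, which encodes dystrophin, fell outside the limit at -0.46 ± 0.13 (adjusted p = 0.0600). Prkg1, the cGMP-dependent kinase that relaxes smooth muscle, had a log2 FC of -0.37 ± 0.11 (adjusted p = 0.0631). Treated and untreated libraries did not overlap in 10 members, 6 of them higher and 4 lower after treatment, against 34.6% of all genes.

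Cald1, Dmd and Prkg1 have a low GC content. Over 12541 genes, the fold changes of the B6 response rose with the GC content of the exons, with a Spearman coefficient of 0.601 (genes being no independent replicates of each other). The tenth of genes with the lowest GC content had a median log2 FC of -0.30 and the tenth with the highest 0.20. Over the 37 members the coefficient was 0.578. Dmd (41.5% GC), Prkg1 (41.5%) and Cald1 (45.0%) stood at the low end, and Ppp1r14a (61.7%) and Smtn (60.1%) were among those at the high end. Sgcd (37.7%), Pdlim3 (43.0%) and Kcnma1 (45.2%) were also low in GC but did not fall, with log2 FC of 0.05, 0.11 and 0.14. When each library was corrected by a smooth curve on GC content, the coefficient over the members became 0.014. The log2 FC was then -0.36 for Cald1 (adjusted p = 0.115), -0.22 for Dmd, -0.14 for Prkg1, 0.08 for Ppp1r14a and 0.03 for Smtn. It rose to 0.42 for Sgcd (adjusted p = 0.0999), 0.29 for Pdlim3 (0.0849) and 0.25 for Kcnma1 (0.133). Whether the slope arose in library preparation or in the tissue was not tested.

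**Figure D2:**
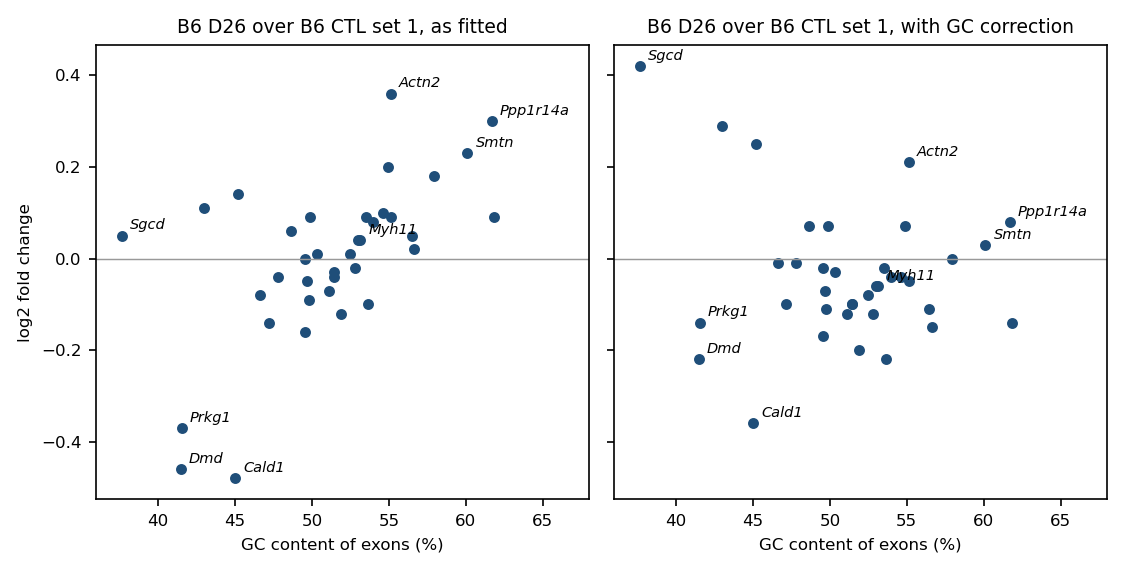
log2 fold change of treated over untreated B6 (B6 CTL set 1) against the GC content of the exons in percent, 1 point per contractile gene, as fitted (left) and after the correction on GC content (right). Cald1, Dmd and Prkg1 lie at -0.48, -0.46 and -0.37 on the left and at -0.36, -0.22 and -0.14 on the right, while Sgcd, the member with the lowest GC content, moves from 0.05 to 0.42.

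In Irf1-/- mutants at D26, few of the contractile genes passed a test in the fits here. For this response the study reported that the Gene Ontology term for muscle contraction was enriched among its downregulated genes. Its list of downregulated genes was longer than the 6 genes called lower here, and which members that list held was not examined. Actn2 was the only member downregulated by the rule of the study, against 0.0473% of 12692 genes downregulated, and none was upregulated, against 0.205%. At an adjusted p under 0.05, Pygm was added, so that 2 members were lower (0.875% of all genes) and 0 higher (1.5%). The median log2 FC was 0.02 among the members and 0.01 among all genes, 21 of 37 were positive (51.8%), and the interval lay within 1.5-fold for 33 members (84.4% of all genes). The actin and myosin genes spanned 0.00 to 0.08 and the 8 actin-binding genes -0.03 to 0.16.

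Actn2 was at 22.8, 23.6 and 25.6 CPM in untreated Irf1-/- mutants and at 12.4, 12.7 and 10.3 CPM in treated ones. The groups were far apart, with a log2 FC of -1.02 ± 0.11 (95% interval -1.27 to -0.77) and an adjusted p of 0.00665, which is 0.49 times the untreated level. Correction for GC content gave -1.05 (adjusted p = 0.00728). Leaving out 1 library at a time, the log2 FC ranged from -1.08 to -0.93 and the adjusted p from 0.00759 to 0.0511. The highest p came without the third untreated mutant library (log2 FC -0.97), and the rule of the study was met without the first or the third treated mutant but not without any of the other 4 libraries. In 1 fit of all 15 libraries the log2 FC was also -1.02, with an adjusted p of 0.0140.

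In B6 mice Actn2 depended on the control set. It was at 9.60, 15 and 14.7 CPM in B6 CTL set 1 and at 24.7, 27.3 and 27.4 CPM in B6 CTL set 2, although both are untreated wild-type mice. The difference between these control sets was 1.01 ± 0.16 on the log2 scale (adjusted p = 0.0255, and up to 0.0758 with 1 library left out), close in size to the change after treatment in the mutants. Treated B6 was at 15.7, 12.6 and 21.6 CPM, overlapping set 1 and below set 2. The log2 FC of the B6 response was therefore 0.36 against B6 CTL set 1 and -0.65 against B6 CTL set 2 (adjusted p = 0.0414), and -0.15 against both sets together. Untreated Irf1-/- mutants had a log2 FC of -0.14 against B6 CTL set 2 (adjusted p = 0.664) and were above B6 CTL set 1 (0.87, adjusted p = 0.00973, a call by the rule of the study).

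Pygm encodes the enzyme that releases glucose units from glycogen for contraction. It was at 29.8, 33.1 and 31.1 CPM in B6 CTL set 1, at 28.4, 42.6 and 35.8 CPM in B6 CTL set 2, and at 33.7, 36.2 and 37.8 CPM in treated B6. Untreated Irf1-/- mutants were at 26.8, 31.8 and 28.7 CPM and treated mutants at 20.6, 18.5 and 20.7 CPM. The 3 treated mutants were the lowest of all 15 mice. The log2 FC of the mutant response was -0.54 ± 0.10 (adjusted p = 0.0322), and it was -0.57 with the correction for GC content (adjusted p = 0.0267). Without 1 library at a time it ranged from -0.60 to -0.47 with adjusted p from 0.0328 to 0.148, the highest without the second untreated mutant library. An adjusted p under 0.05 was kept in only 2 of 6 such fits, those without the first or the third treated mutant. In B6 the same response was 0.20 ± 0.09 (adjusted p = 0.156).

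Casq2, the calcium-binding calsequestrin of the sarcoplasmic reticulum, was the third member whose treated and untreated mutant libraries did not overlap, with a log2 FC of -0.39 ± 0.12 and an adjusted p of 0.135. It was at 21.9, 21.7 and 25.2 CPM untreated and at 16.6, 15.5 and 20.3 CPM treated. Libraries did not overlap in 24.8% of all genes in this response.

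The 250 bases before the start of Actn2 and of Pygm are shown because these are the members that met the rule of the study. E-boxes (CANNTG), the sites of muscle bHLH factors such as MyoD among others, are in capitals. Actn2 lies on the minus strand at chr13:12340733-12340982 and Pygm on the plus strand at chr19:6384158-6384407 (GRCm38.p6, RefSeq).
Actn2: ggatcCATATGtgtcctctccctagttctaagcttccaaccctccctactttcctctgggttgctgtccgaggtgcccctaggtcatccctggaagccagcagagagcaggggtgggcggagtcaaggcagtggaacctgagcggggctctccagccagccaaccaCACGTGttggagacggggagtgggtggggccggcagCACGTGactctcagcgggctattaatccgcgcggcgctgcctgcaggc
Pygm: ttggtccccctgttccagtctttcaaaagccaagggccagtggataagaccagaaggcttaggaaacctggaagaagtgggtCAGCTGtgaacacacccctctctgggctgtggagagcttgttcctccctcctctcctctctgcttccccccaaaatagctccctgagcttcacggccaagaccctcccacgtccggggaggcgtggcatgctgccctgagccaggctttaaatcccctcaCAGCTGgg
There were 3 E-boxes before Actn2 and 2 before Pygm. At least 1 was present in 23 of the 33 members with a sequence (69.7%) and in 62.0% of measured genes, so this motif does not set the members apart.

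Treated Irf1-/- mutants were next set against treated B6 mice, which come from different count tables. Of the 37 genes, 1 was downregulated by the rule of the study (Pygm), against 0.849% of 12483 genes, and 0 were upregulated, against 0.841%. At an adjusted p under 0.05 there were 2 lower (Pygm and Ppp1r14a; 4.69% of all genes) and 2 higher (Cald1 and Kcnma1; 7.57%). The members had a median log2 FC of 0.00, beside 0.01 for all genes, 18 were positive (51.4%), and the interval lay within 1.5-fold for 31 (79.0% of all genes). Libraries did not overlap in 8 members (27.7% of all genes).

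Pygm was at 33.7 to 37.8 CPM in treated B6 and 18.5 to 20.7 CPM in treated Irf1-/- mutants, a log2 FC of -0.85 ± 0.09 (95% interval -1.04 to -0.66) with an adjusted p of 0.000132, or 0.56 times the B6 level. It met the rule with each of the 12 mice in the fit left out in turn. Untreated mice are outside this contrast, and without 1 of them the log2 FC stayed at -0.86 or -0.85. Without 1 of the treated mice it was -0.89 to -0.81. The rule was also met with the correction for GC content (-0.73, adjusted p = 0.000276).

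Ppp1r14a, the protein that inhibits myosin phosphatase when phosphorylated and so sustains contraction, was at 32.7, 26.5 and 34.5 CPM in treated B6 and 20.5, 21.2 and 25.0 CPM in treated mutants, with a log2 FC of -0.49 ± 0.12 (adjusted p = 0.0240). Before treatment it was at 25.3, 28.6 and 22.6 CPM in B6 CTL set 1, at 25.7, 23.4 and 23.3 CPM in B6 CTL set 2 and at 22.9, 26.3 and 27.1 CPM in the mutants. Treated B6 was thus the group that stood highest. Cald1 was at 224, 227 and 225 CPM in treated mutants against 140, 184 and 165 CPM in treated B6 (log2 FC 0.47 ± 0.10, adjusted p = 0.0146), and untreated mutants were at 194, 184 and 228 CPM. Kcnma1, the pore of the large-conductance calcium-activated potassium channel, had a log2 FC of 0.28 ± 0.08 (adjusted p = 0.0437). Ppp1r14a has 61.7% GC, and Cald1 and Kcnma1 have 45.0% and 45.2%. With the correction for GC content none of the 3 passed, at -0.32 (adjusted p = 0.113) for Ppp1r14a, 0.36 (0.0714) for Cald1 and 0.17 (0.208) for Kcnma1. The 12 fits that left out 1 mouse again included untreated mice. Cald1 missed the limit without the third treated B6 mouse or the second treated mutant (adjusted p up to 0.0537). Ppp1r14a missed it in 4 of 12 fits (up to 0.103, without the third treated B6 mouse) and Kcnma1 in 8 (up to 0.174, without the second treated mutant).

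**Figure D3:**
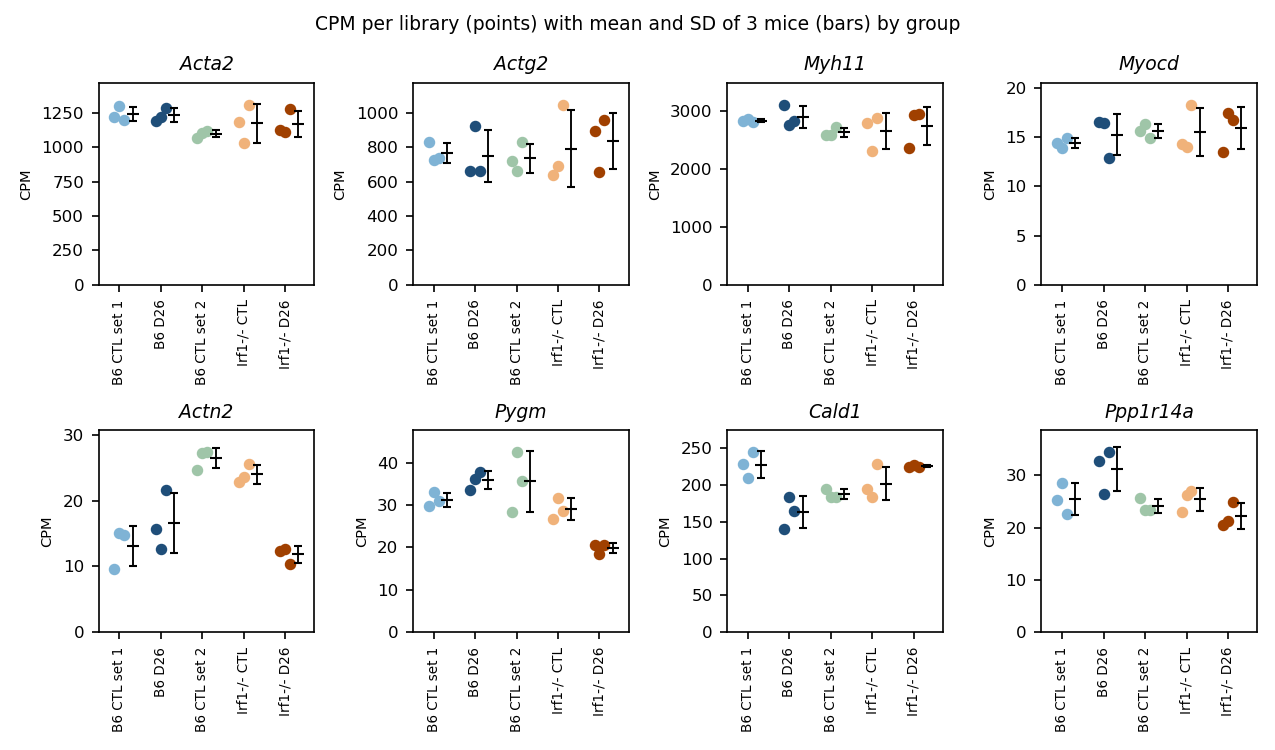
CPM in each library (points, 3 per group) with the mean and SD of 3 mice beside them, on axes that start at 0, for 8 genes. Acta2, Actg2, Myh11 and Myocd overlap between treated B6 and B6 CTL set 1 and between treated and untreated mutants, while Acta2 and Myh11 of treated B6 lie above B6 CTL set 2, Actn2 is higher in B6 CTL set 2 and untreated Irf1-/- mutants than in the other groups, and Pygm is lowest in treated Irf1-/- mutants at 18.5 to 20.7 CPM.

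The difference between the responses of the genotypes was tested directly with the interaction in the fit of 4 groups. In edgeR 0 of 37 members passed either limit, against 0.0160% of 12483 genes by the rule of the study and 0.0481% at an adjusted p under 0.05, and 6 members had an unadjusted p under 0.05, against 16.9%. The DESeq2 Wald test called 3 (Pygm and Actn2 lower, Cald1 higher). The share of all genes called by DESeq2 is not given here, so this count has no background beside it. Pygm had the largest evidence among the members, with a difference of -0.74 ± 0.12 (95% interval -1.01 to -0.47, adjusted p = 0.0630). Actn2 followed at -1.37 ± 0.27 (adjusted p = 0.0741) and Cald1 at 0.64 ± 0.15 (adjusted p = 0.0887). With B6 CTL set 2 in place of set 1 these became -0.56, -0.36 and 0.36, with adjusted p of 0.195, 0.473 and 0.269. The interval lay within 1.5-fold for 27 members (62.4% of all genes), and for the other 10 it reached beyond that bound. For Actn2 it lay wholly beyond it, at -1.96 to -0.78.

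Averaged over both genotypes, the response to AOM/DSS gave 0 calls by the rule of the study in edgeR and in DESeq2, against 1.30% of all genes. At an adjusted p under 0.05 there was 1 member lower, Casq2 (log2 FC -0.27 ± 0.09, adjusted p = 0.0448), against 9.36% of all genes, and 0 higher, against 8.59%. An unadjusted p under 0.05 was reached by 7 members, against 34.2% of all genes. For 36 of the 37 the interval lay within 1.5-fold (90.3% of all genes). With the correction for GC content Casq2 was at -0.24 (adjusted p = 0.0911), and it missed the limit in 9 of 12 fits that left out a mouse (adjusted p up to 0.112, without the third untreated mutant). With the same correction, whose share of all genes is not given, 3 other members passed an adjusted p under 0.05. These were Kcnma1 (0.23, adjusted p = 0.0163) and Sgcd (0.32, adjusted p = 0.0497), which were higher, and Pygm (-0.25, adjusted p = 0.0214), which was lower.

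**Figure D4:**
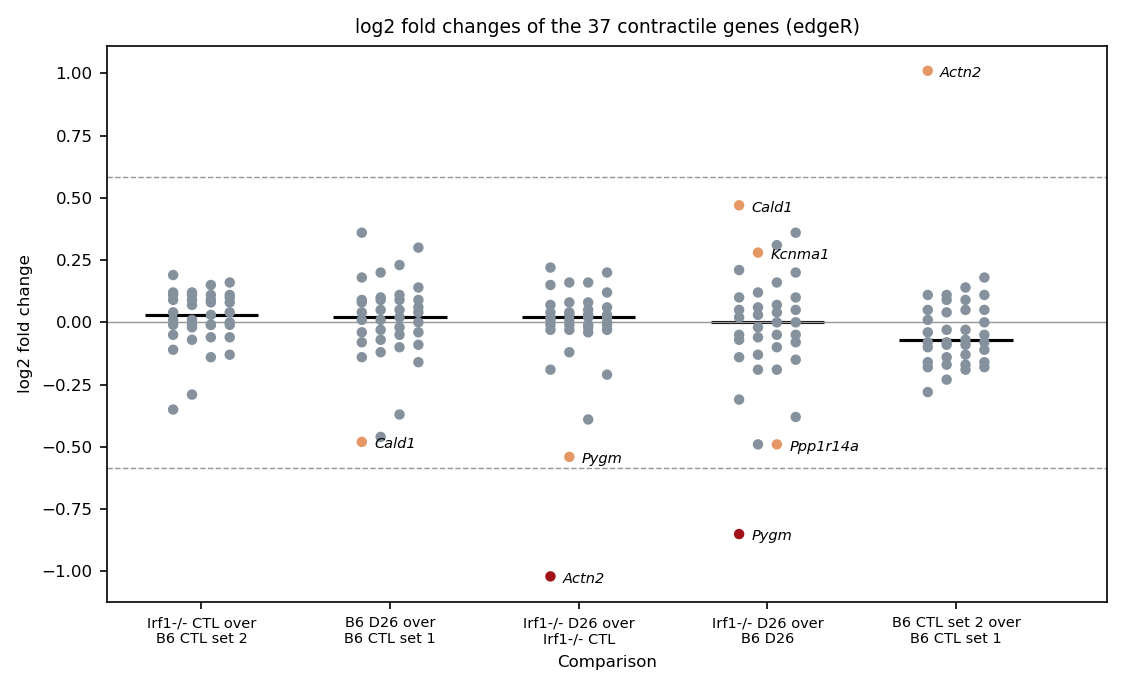
log2 fold changes of the 37 genes (points) in 5 comparisons, with the median as a black bar, dashed lines at a fold change of 1.5, dark red for members that met the rule of the study and orange for those with an adjusted p under 0.05 only. Only Actn2 (-1.02 in the mutant response) and Pygm (-0.85 between treated genotypes) are dark red, and the medians lie between -0.07 and 0.03.

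The 2 untreated B6 sets give the scale of change without any treatment. By the rule of the study 0 members differed in edgeR (0.0644% of 12417 genes). An unadjusted p under 0.05 was reached by 4, against 17.2% of all genes. DESeq2 and the exact test each called 1 (Actn2), and their shares of all genes are not given here. At an adjusted p under 0.05 only Actn2 was higher in set 2 (0.169% of all genes) and 0 were lower (0.403%). The median log2 FC was -0.07 among the members and 0.00 among all genes, with 14 of 37 positive (49.2% of all genes). Libraries did not overlap in 10 members that were lower in set 2, against 11% of all genes, and in 2 that were higher, against 10.3%. The lower ones included Acta2 (log2 FC -0.17), Tagln (-0.19), Myl9 (-0.23) and Myh11 (-0.11), all small beside the 1.5-fold limit.

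Within the mutant groups the members tended to move together from mouse to mouse. In untreated Irf1-/- mutants the third library was the highest of the 3 for 27 of the 37 genes and the second the lowest for 28. In treated Irf1-/- mutants the third was the highest for 26 and the first the lowest for 26. The third libraries held the highest value of their group in 33.5% (untreated) and 35.5% (treated) of all genes. The share of all genes with their lowest value in a given library was not counted. The median deviation of the members from their mean over 15 libraries was 0.12 and -0.13 on the log2 scale in the third and second untreated mutants, and 0.10 and -0.13 in the third and first treated ones, while that of all genes was 0.01 at most. In the B6 groups no library was the highest for more than 20 members. Pygm kept to neither order, and its lowest value among treated mutants was in the second library.

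**Figure D5:**
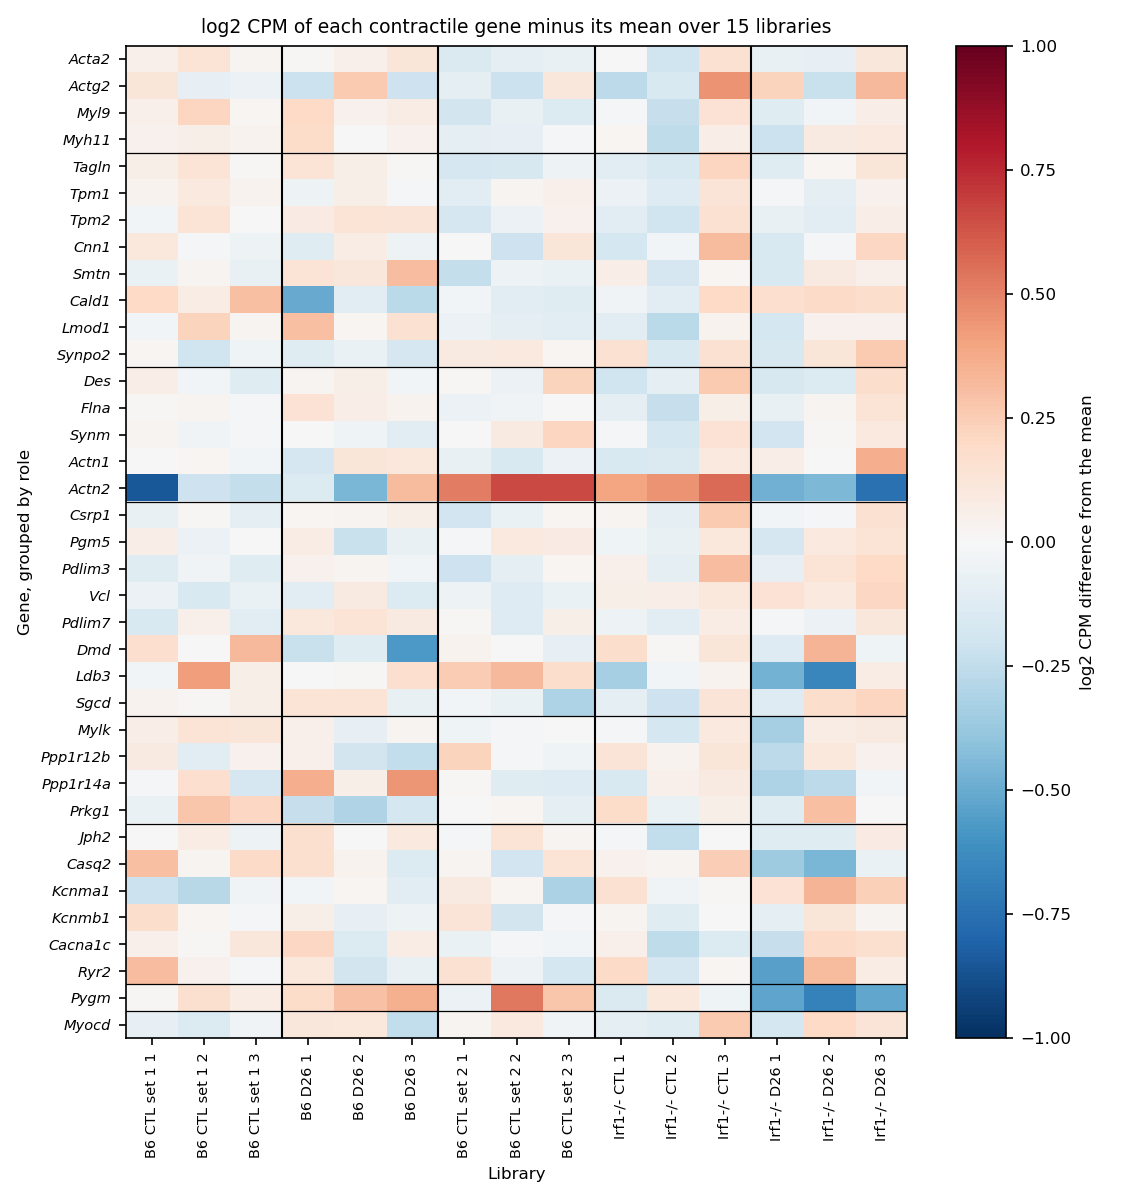
log2 CPM of each gene minus its mean over the 15 libraries, in red above and in blue below the mean, with genes grouped by role and libraries by group. Most cells are pale, the third untreated Irf1-/- library is red for most genes and the second is blue, and Actn2 and Pygm carry the strongest colours.

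Genes of skeletal muscle had differences of the same sign as Actn2 and Pygm. The 13 skeletal markers (Acta1, Ckm, Myh1, Myh2, Myh4, Mylpf, Tnnt3, Tnnc2, Tnni2, Neb, Myl1, Mb and Tcap) summed to 242 to 332 CPM in B6 CTL set 1, 400 to 565 CPM in B6 CTL set 2 and 349 to 655 CPM in treated B6. In Irf1-/- mutants they summed to 328 to 473 CPM untreated and 162 to 287 CPM treated. All 13 were negative in the mutant response (median log2 FC -0.86), 2 of them at an adjusted p under 0.05. In treated mutants against treated B6 all 13 were negative (median -1.01), 7 at an adjusted p under 0.05, and all 13 were positive in B6 CTL set 2 against set 1 (median 0.73, none passing). The markers differed in level, and some were near the floor in their lowest library. Acta1 was at 45.1 to 164 CPM, which may include reads shared with other actins. Myl1 was at 2.01 to 13.1 CPM and Tcap at 2.54 to 13.7 CPM. Over the 15 libraries, Pygm followed the mean log2 level of these markers with Pearson's r = 0.73 (permutation p = 0.00163, adjusted over 37 members 0.0603) and a Spearman coefficient of 0.63 (permutation p = 0.0134, adjusted 0.209). Without the 2 libraries farthest from the median of the markers r was 0.59, and within groups it was 0.38. For Actn2 r was 0.54 (permutation p = 0.0370, adjusted 0.375) and the Spearman coefficient 0.59 (permutation p = 0.0230, adjusted 0.209), with r of 0.43 without the farthest libraries and -0.35 within groups. None of the 37 members passed after adjustment. Libraries of different groups are not exchangeable, so these p-values do not separate a link between mice from the differences between groups. No p is given for the coefficients within groups. The part of skeletal muscle in the values of Actn2 and Pygm was not tested. The smooth muscle markers, by contrast, had a median log2 FC of 0.01 in the mutant response and -0.05 between the treated genotypes, with 0 of 6 passing.

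A wider list of 140 other smooth muscle genes, out of 159 written down, was tested in the same fits. At steady state, of 139 tested, 1 passed by the rule of the study, against 0.405% of all genes. It was Ryr1, the ryanodine receptor of skeletal muscle, at 23.8 to 26.1 CPM in B6 CTL set 2 and 12.6 to 16.2 CPM in untreated mutants (log2 FC -0.83 ± 0.11, adjusted p = 0.00756). Between treated genotypes Ryr1 was again the only call of 136 in edgeR (1.69% of all genes), with Srl added by DESeq2 and the exact test (Ryr1 at 18.1 to 24.0 CPM in B6 and 6.76 to 11.1 CPM in mutants, log2 FC -1.12 ± 0.22, adjusted p = 0.00786, and -0.98 with the correction for GC content, adjusted p = 0.0299). B6 CTL set 1, however, had 10.5 to 18.7 CPM of Ryr1, and against that set the log2 FC at steady state was -0.05 (adjusted p = 0.927). Like Actn2, Ryr1 was higher in B6 CTL set 2 than in set 1 (0.78 ± 0.18, adjusted p = 0.0721 in edgeR), a difference that DESeq2 and the exact test called (adjusted p = 0.00119 and 0.00214).

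The response of B6 mice held 0 calls among 137 of these genes in edgeR, 2 in DESeq2 (Tagln2 and Rock1) and 1 in the exact test (Tagln2), with 43 at an unadjusted p under 0.05 (29.5% of all genes), and 5 at an adjusted p under 0.05 (8.46% of all genes). Tagln2, a relative of transgelin made in many cells, was upregulated (log2 FC 0.69 ± 0.13, adjusted p = 0.0246), as was the LIM protein gene Pdlim4 (0.57 ± 0.12, adjusted p = 0.0262). Ppp1cb, the catalytic subunit of myosin phosphatase, was downregulated (-0.48 ± 0.09, adjusted p = 0.0228), as was Mbnl1, a splicing regulator (-0.39 ± 0.08, adjusted p = 0.0238). Rock1 was lower as well (-0.58 ± 0.13, adjusted p = 0.0352). Tagln2 was also higher in B6 CTL set 2 than in set 1 (0.57 ± 0.07, adjusted p = 0.0135), at 196 to 223 CPM against 138 to 145 CPM, and treated B6 had a log2 FC of 0.12 against set 2 (adjusted p = 0.566). Against set 2 an adjusted p under 0.05 was kept by Pdlim4 (0.55, adjusted p = 0.0238) and Ppp1cb (-0.44, 0.0184). It was also kept by Mbnl1 (-0.35, 0.0394) and Rock1 (-0.46, 0.0401). With the correction for GC content all 5 missed the limit, at 0.54 for Tagln2, 0.42 for Pdlim4, -0.21 for Ppp1cb, -0.09 for Mbnl1 and -0.30 for Rock1. In the mutant response 0 of 136 were called in edgeR, DESeq2 or the exact test, with 21 at an unadjusted p under 0.05 (18.6% of all genes), and 2 passed an adjusted p under 0.05 (2.37% of all genes), with Filip1l higher (0.44 ± 0.08, adjusted p = 0.0295) and the LIM protein gene Csrp2 lower (-0.34 ± 0.07, adjusted p = 0.0392).

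Averaged over the genotypes, 19 of 136 passed an adjusted p under 0.05 (13 higher and 6 lower), against 17.9% of all genes. Those with the smallest p were Ppp1cb (-0.28 ± 0.05, adjusted p = 0.00591), the plasma membrane calcium pump Atp2b1 (-0.30 ± 0.06, adjusted p = 0.00676), Pak1 (0.25 ± 0.05, adjusted p = 0.00801) and Gucy1a2, a subunit of the nitric oxide receptor guanylyl cyclase (-0.40 ± 0.08, adjusted p = 0.00899). Between treated genotypes 10 passed (7 higher and 3 lower; 12.3% of all genes), and Ppp1cb (0.45 ± 0.08, adjusted p = 0.00347), Mbnl1 (0.35 ± 0.07, adjusted p = 0.0111) and Rock1 (0.55 ± 0.13, adjusted p = 0.0164) were higher in the mutants. With the correction for GC content these became 0.20, 0.06 and 0.28 and missed the limit, and of the 4 genes averaged over the genotypes Pak1 alone passed (0.28, adjusted p = 0.00798). For the difference between responses 0 of 136 met the rule of the study in edgeR or DESeq2, with 25 at an unadjusted p under 0.05 (16.9% of all genes). At an adjusted p under 0.05 the share that passed was 3.65% in the B6 response (8.46% of all genes) and 1.47% in the mutant response (2.37%). It was 14.0% in the average response (17.9%) and 7.35% between treated genotypes (12.3%). Between the control sets it was 0.735%, against 0.169% of all genes higher and 0.403% lower. These comparisons share libraries, and whether the shares differ from those of all genes was not tested.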

How the data were processed

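RNA was extracted from frozen distal colon of 15 mice with TRIzol and RNeasy columns, depleted of rRNA, made into stranded libraries and sequenced as 50 bp pairs. The authors deposited raw read counts per gene, not normalised, in 3 tables, and by their methods left out genes under 5 CPM in at least 3 libraries. The untreated Irf1-/- counts stand identically in 2 tables and were used once. The submitters' processing notes name TopHat2 2.0.9, Bowtie 1.0.0, featureCounts, edgeR and the build mm9. The counting options and annotation are not given in the sources used here, so reads shared by related genes, such as the actins, may have been split between them. Only count columns were used, and 36 per-sample CPM and logCPM columns and the authors' fold changes and p-values were not.

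Genes were tested with edgeR 4.0.16 (quasi-likelihood, TMM) in R 4.3.3 with Benjamini-Hochberg adjustment over all genes of a comparison. A log2 FC is followed by its SE, and a call needed an adjusted p under 0.01 and an FC of 1.5 or more. Shares of all genes beside counts of members are those of the main edgeR fits. Alternatives were RLE factors, DESeq2 1.42.0, edgeR's exact test, a 10 CPM filter, 1 fit of all libraries, a block for the replicate number, a lowess correction on GC content (span 0.3), the other control set and leaving out each mouse. The samples of equal replicate number were not treated as paired in the main fits. Correlations used 100000 permutations (scipy 1.17.1), two-sided. Scripts were tested on simulated data. GC content and exon length came from GENCODE M21. Replicate pairs differed by more than sampling noise, with chi-square over degrees of freedom of 8.65 to 42.7. Depth was at least 22266607 counts per library, which leaves counting error small beside the spread between mice for abundant members. For members with low counts, such as Sgcd with 214 in its lowest library, counting error can make up much of the spread.

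By rule, per-library values are given for 6 fixed genes and for members that were called or had an adjusted p under 0.05 with a log2 FC of at least 0.3 in size, to at most 16 members. Ldb3, Vcl and Casq2, which did not overlap, were added after their values were seen. Of 140 other smooth muscle genes, those called or else up to 4 per comparison with the smallest p are named, and Rock1 and further values of these genes were added after their values were seen. Members and lists were chosen with earlier results of these data known.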

Additional observations from a re-analysis of the deposited data

How the results depend on the processing

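No called fold change of a member reversed its direction under the alternatives run, but that of Actn2, which was not called, did so with the control set: from 0.36 to -0.65 in the B6 response and from -0.14 to 0.87 at steady state. Most counts of called members and their median fold changes stayed within 1.5 times the given count or within the spread. Exceptions were few. Against B6 CTL set 1 in place of set 2, 1 member (Actn2) was called higher in untreated mutants and the median log2 FC was -0.07, and with 1 mouse left out that median was -0.05 to 0.08. In the B6 response the replicate block with GC correction gave a median of -0.07, and 1 member was lower at an adjusted p under 0.05. In the mutant response 0 members were lower with all 15 libraries in 1 fit, 2 at an adjusted p under 0.05, and 0 to 1 with a mouse left out. DESeq2 called 1 member higher and 2 lower for the difference between responses. For the average response 1 member was lower against B6 CTL set 2 (Actn2, -0.85, adjusted p = 0.000564) and 1 (Casq2) at an adjusted p under 0.05. Between treated genotypes 2 were higher and 2 lower at an adjusted p under 0.05, and 1 to 2 were lower with a mouse left out (2 without the second treated B6 mouse). Between the control sets 1 (Actn2) was higher in DESeq2, in the exact test and at an adjusted p under 0.05. The causes were not tested. Over all genes, the GC correction took the calls from 6 to 0 in the B6 response, from 162 to 100 on average and from 211 to 96 between treated genotypes, and 12382 to 12541 genes with a known GC content were tested there.

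Deviations of same-numbered libraries had correlations from -0.14 to 0.25. In each comparison 0 to 3 of 6 libraries correlated best with their own number. With 3 mice per group this check cannot exclude a pairing by replicate number. With the replicate number as a block the calls over all genes went from 51 to 44 at steady state, 6 to 5 in the B6 response, 32 to 48 in the mutant response, 162 to 115 on average, 211 to 165 between treated genotypes and 8 to 13 between control sets, and stayed at 2 for the difference. Actn2 in the mutant response (adjusted p = 0.00955) and Pygm between treated genotypes (0.00056) stayed called, while Cald1 in the B6 response (0.0836), Casq2 on average (0.0547) and Kcnma1 between treated genotypes (0.0731) missed 0.05. Correlations with the skeletal markers under other scaling or without Acta1, chosen after seeing the data, gave Pygm r = 0.72 to 0.74 (adjusted p = 0.0585 to 0.0858). edgeR's exact test could not be fitted to the difference or the average. The 3 mice per group limit every comparison, and low counts add to this for the least abundant members.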
